A study of Mus musculus with 8 samples.

Results

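The insulin-like growth factor (IGF) receptors and binding proteins described here are 10 genes: the ligand gene Igf1, the receptor genes Igf1r and Insr, the adaptor gene Irs1, and the binding protein genes Igfbp2, Igfbp3, Igfbp4, Igfbp5, Igfbp6 and Igfbp7. They were chosen by symbol, with earlier results of these data known, and each matched 1 of the 24487 gene records (23997 symbols) in the deposited tables. The 8 libraries came from embryonic lung of C57BL/6 mice, and all of them carry the tamoxifen-induced labelling for translating ribosome affinity purification (TRAP), which recovers mRNA from the ribosomes of labelled cells through the ribosomal protein L10. Wild-type lung of embryonic days 14 (E14) and 17 (E17) was profiled both as TRAP and as whole lung, each combination in 1 library. At E16, TRAP was made from 2 samples labelled wild type and 2 labelled Sox9-mutant. The titles of the E16 libraries also name E13, which the labels do not explain, and the design text calls the E14 reference a supernatant where its label says whole lung homogenate. The promoter that drives the label, the cells in which Sox9 was lost and the part of the gene that was removed are not stated by the sources used here. Nothing says that replicates came from separate animals, so a p-value reflects the spread among these samples and nothing wider.

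IGF signalling is a main driver of growth before birth. The secreted ligands IGF1 and IGF2 bind the receptor tyrosine kinase encoded by Igf1r, and IGF2 also binds an isoform of the insulin receptor encoded by Insr. The activated receptors phosphorylate adaptors such as IRS1, which recruit phosphoinositide 3-kinase (PI3K) and so switch on the kinases AKT and mTOR. The binding proteins are secreted, hold IGF outside the cell, and can withhold the ligand from the receptor or deliver it. IGFBP6 prefers IGF2, and IGFBP7 is a relative that binds IGFs only weakly. Sox9 is expressed in the growing tips of the lung epithelium, where it encodes a transcription factor, and mice that lack Igf1r have poorly grown lungs.

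Between 9783768 and 21500523 fragments lay behind a library, as inferred from the deposited confidence bounds, and the E14 TRAP library was the shallowest. Values are FPKM, fragments per kilobase of transcript scaled to the mapped fragments of a library, so levels may be compared between genes. Sox9 itself, the check of the labels, stood at 35.9 and 36.4 FPKM in the wild-type and at 12.8 and 11.0 FPKM in the mutant libraries, a log2 difference of -1.53 (limma adjusted p = 0.000153). The 16 epithelial markers summed to between 2812 and 3796 FPKM in the 6 TRAP libraries and to 662 and 1244 FPKM in whole lung, so the labelled epithelium was enriched and not pure. The 16 mesenchymal markers still summed to between 183 and 359 FPKM in TRAP, or to between 77.8 and 160 FPKM without Vim. No marker of any of the 8 cell type lists was at 0 in every TRAP library. Mir762, a short record, took 50.05% of all FPKM in wild-type replicate 1 and 33.95% in E17 TRAP, whereas the largest record of the other libraries took between 1.8% and 11.5%. Rescaling to a common total therefore moved every gene of those libraries.

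Positions are of the mouse build mm10. Igfbp2 lies on chromosome 1 at 72824480 to 72852471 and Igfbp5 at 72858065 to 72874865 beside it. The gap between them is 5593 bases, with 0 protein-coding genes in it. Irs1 is on the same chromosome at 82233105 to 82291439. Igfbp3 (7206091 to 7213923) and Igfbp4 (99041260 to 99052643) are on chromosome 11, and the next gene to Igfbp3 is Igfbp1, 3544 bases away. Igfbp6 is on chromosome 15 (102144186 to 102149512) and Igfbp7 on chromosome 5 (77349240 to 77408045), where its record overlaps the end of Polr2b (at most 27.8 FPKM). Igf1 is on chromosome 10 (87859056 to 87937047), Igf1r on chromosome 7 (67952257 to 68233667) and Insr on chromosome 8 (3150922 to 3279617).

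The promoters of the members with the widest differences in the Sox9 mutant are printed from RefSeq (GRCm38.p6) as the 250 bases before and 50 bases after the gene's start, 5′ to 3′ on the gene's strand. Irs1, Igfbp2 and Igfbp4 were lower in the mutant and Igfbp6 and Igfbp7 higher. Capitals mark matches, on either strand, to 6 short motifs that do not overlap here. SOX factors bind the core ACAATG and the related core ACAAAG. The core TGTTTAC is bound by FOXO factors. The GC box was searched as GGGCGG, the TATA box as TATAAA and the E box as CACGTG. The 5 windows are chr1:72824230-72824529 (plus strand) for Igfbp2, chr1:82291390-82291689 (minus) for Irs1, chr11:99040994-99041293 (plus) for Igfbp4, chr5:77407996-77408295 (minus) for Igfbp7 and chr15:102143936-102144235 (plus) for Igfbp6.
Igfbp2: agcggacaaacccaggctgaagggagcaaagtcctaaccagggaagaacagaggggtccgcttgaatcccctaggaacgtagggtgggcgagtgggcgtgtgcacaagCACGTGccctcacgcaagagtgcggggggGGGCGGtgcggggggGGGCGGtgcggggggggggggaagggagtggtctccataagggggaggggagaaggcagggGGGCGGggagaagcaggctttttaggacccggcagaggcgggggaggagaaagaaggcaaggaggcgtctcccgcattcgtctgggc
Irs1: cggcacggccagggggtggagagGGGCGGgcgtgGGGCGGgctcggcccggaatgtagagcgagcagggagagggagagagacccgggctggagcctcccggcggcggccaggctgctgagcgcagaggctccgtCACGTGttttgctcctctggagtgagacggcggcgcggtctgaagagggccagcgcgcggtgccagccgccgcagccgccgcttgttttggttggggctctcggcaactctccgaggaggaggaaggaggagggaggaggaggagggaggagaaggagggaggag
Igfbp4: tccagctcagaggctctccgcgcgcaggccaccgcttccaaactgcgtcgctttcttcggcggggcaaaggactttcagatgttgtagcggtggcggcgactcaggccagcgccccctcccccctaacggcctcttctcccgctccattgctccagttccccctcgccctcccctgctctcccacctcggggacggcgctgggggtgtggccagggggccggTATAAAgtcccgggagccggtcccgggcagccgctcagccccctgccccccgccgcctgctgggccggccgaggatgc
Igfbp7: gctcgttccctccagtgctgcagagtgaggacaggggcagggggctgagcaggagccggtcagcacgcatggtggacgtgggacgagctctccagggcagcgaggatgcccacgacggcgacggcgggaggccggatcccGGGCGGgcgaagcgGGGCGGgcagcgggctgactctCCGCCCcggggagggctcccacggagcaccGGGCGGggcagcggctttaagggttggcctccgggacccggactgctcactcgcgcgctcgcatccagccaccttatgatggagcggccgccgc
Igfbp6: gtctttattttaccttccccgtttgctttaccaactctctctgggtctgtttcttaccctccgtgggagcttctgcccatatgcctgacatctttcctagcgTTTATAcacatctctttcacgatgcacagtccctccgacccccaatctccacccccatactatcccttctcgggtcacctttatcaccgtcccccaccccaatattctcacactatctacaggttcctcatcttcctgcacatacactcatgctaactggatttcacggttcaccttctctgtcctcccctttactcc
Among these 5 windows, GC content was 67.0% for Igfbp2, 71.3% for Irs1 and for Igfbp4, 73.3% for Igfbp7 and 49.7% for Igfbp6, against a median of 52.7% over 32851 mouse promoters of the same length. Igfbp2 has 2 entries in that table, and the one printed is that at the start of the gene record. The other, chr1:72825137-72825436, held none of the 6 motifs, with a GC content of 57.3%. The printed windows of Igfbp2 and Irs1, both lower in the mutant, each held an E box, a motif in 7.15% of all promoters, and Igfbp2, Irs1 and Igfbp7 held GC boxes, found in 35.7%. A TATA box, found in 13.6%, was in the windows of Igfbp4 and Igfbp6. The SOX cores ACAATG (12.6% of promoters) and ACAAAG (18.7%) had no match in these 5 windows, and among the 9 members with an entry they matched in Igf1 and, for ACAAAG, also in Igf1r. TGTTTAC, in 3.65% of promoters, was in no member's window. A match describes letters only, and the absence of one says nothing of binding elsewhere.

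The binding protein genes made up most of the family's mRNA, and their makeup differed between TRAP and whole lung. In E14 TRAP the levels ran from Igfbp2 at 625 FPKM through Igfbp5 (213), Igfbp4 (117), Irs1 (18.3), Igfbp7 (14.2), Igf1r (13.1), Insr (4.53), Igfbp3 (3.41) and Igf1 (1.94) to Igfbp6 (1.36 FPKM). In that order the deposited confidence bounds overlapped only between Igfbp7 and Igf1r and between Igf1 and Igfbp6. For Igf1 and Igfbp7 the bounds did not follow counting error alone in all libraries. Whole lung at both stages was led by Igfbp4 instead, at 248 FPKM in E14 and 256 FPKM in E17. In the mutant at E16 the order changed at the top, where Igfbp7 stood above Igfbp2 in both libraries, with bounds that did not overlap. Igfbp1 was at or under 0.144 FPKM in every library and was not tested.

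**Figure D1:**
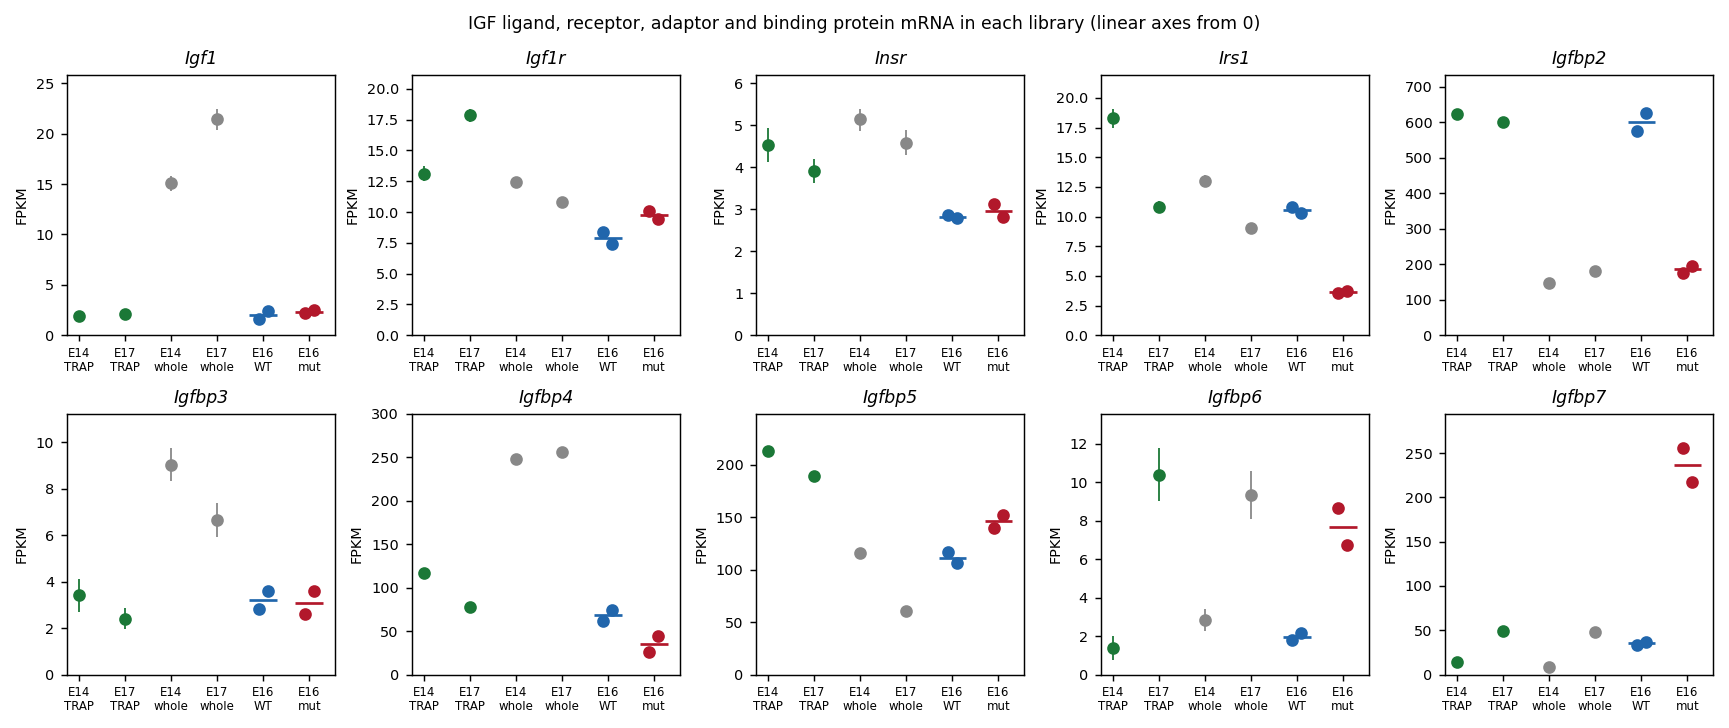
FPKM of the 10 genes in each of the 8 libraries, on linear axes from 0, with 1 panel per gene and 1 point per library. Vertical bars are the authors' deposited confidence bounds for the single libraries of E14 and E17, and horizontal lines are the means of the 2 E16 replicates. Igfbp2 lies between 576 and 627 FPKM in the 4 wild-type TRAP libraries and between 148 and 196 FPKM in whole lung and the mutant, and Igfbp7 is highest in the mutant at 256 and 217 FPKM.

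In labelled cells against whole lung, Igfbp2 and Igfbp5 were higher in TRAP and Igf1, Igfbp3 and Igfbp4 were lower. These 5 of the 10 genes passed the test, limma on log2(FPKM + 1) over the 4 wild-type libraries of those days, with a stage term and a Benjamini-Hochberg adjusted p under 0.05. Of all 12318 records tested, 40.7% passed, 23.6% higher and 17.1% lower, so the share of the family that passed was near that of all genes. The median log2 difference of the 10 genes was 0.09 beside 0.05 for all records. With 1 library per stage and fraction, the error in this fit is the disagreement between the stages. At E14 alone 1 of the 10 genes was at least 2-fold higher in TRAP on FPKM + 1 and 3 were lower, where 5.99% and 9.43% of records were, and at E17 alone 2 were higher and 3 lower, where 4.81% and 8.91% of records were. In bulk RNA, fewer cells of a type and less RNA per cell cannot be told apart. TRAP also selects mRNA on ribosomes, which whole lung does not, so cell type and ribosome binding cannot be told apart here either.

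The ligand gene Igf1 stood at 1.94 FPKM in E14 TRAP against 15.1 FPKM in E14 whole lung, and at 2.09 against 21.5 FPKM at E17. Whole lung was thus 7.77-fold higher at E14 and 10.3-fold higher at E17, and every TRAP library, the E16 ones included, lay at or below 2.46 FPKM. The log2 difference was -2.66 (SE 0.16, limma adjusted p = 0.000724), the widest among the 10 genes in this comparison. Igf1 is known as a product of lung mesenchyme, and the mesenchymal markers moved the same way: 14 of the 15 tested passed as lower in TRAP. The sum of all 16 was 4.58-fold and 5.82-fold higher in whole lung. Vim made up most of that sum in TRAP. Without Vim the sum was 109 FPKM in TRAP against 1168 FPKM in whole lung at E14, and 127 against 1439 FPKM at E17. The part of residual mesenchymal RNA in the low TRAP values of Igf1 was not tested.

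Igfbp2, whose product binds both IGFs, stood at 625 FPKM in TRAP and 148 FPKM in whole lung at E14, and at 602 and 180 FPKM at E17. The TRAP value was 4.24-fold higher at E14 and 3.35-fold higher at E17 (log2 difference 1.91, SE 0.12, limma adjusted p = 0.000724). That ratio lies close to that of the epithelial markers, all 16 of which were higher in TRAP and whose sum was 4.67-fold and 2.83-fold higher there. Igfbp5, which encodes a binding protein that also attaches to the extracellular matrix, stood at 213 and 116 FPKM at E14 and at 189 and 60.3 FPKM at E17 (log2 difference 1.25, SE 0.18, limma adjusted p = 0.00566). Both genes of the chromosome 1 pair were thus higher in TRAP at each stage.

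Igfbp4, whose product is an inhibitor of IGF action that the protease PAPP-A cleaves, went the other way. It stood at 117 FPKM in TRAP and 248 FPKM in whole lung at E14, and at 78.3 and 256 FPKM at E17 (log2 difference -1.39, SE 0.16, limma adjusted p = 0.00275). Igfbp3, which encodes the main IGF carrier of adult blood, was a low gene here at 3.41 against 9.04 FPKM at E14 and 2.40 against 6.66 FPKM at E17. Its log2 difference was nearly the same at the 2 stages, -1.19 and -1.17 (fit -1.18, SE 0.15, limma adjusted p = 0.00359).

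The receptor genes differed less between the fractions. Igf1r stood at 13.1 FPKM in TRAP and 12.4 FPKM in whole lung at E14, where the deposited bounds overlapped, and at 17.9 and 10.8 FPKM at E17, where they did not (log2 difference 0.38, SE 0.17, limma adjusted p = 0.133). Insr, at 4.53 and 5.14 FPKM at E14 and 3.91 and 4.59 FPKM at E17, had a log2 difference of -0.17 (SE 0.15, limma adjusted p = 0.406). Irs1 stood at 18.3 and 13.0 FPKM at E14 and at 10.8 and 9.06 FPKM at E17 (log2 difference 0.35, SE 0.13, limma adjusted p = 0.0787). Igfbp6 (adjusted p = 0.370) and Igfbp7 (0.155) did not pass limma's test either. With no filter on low values no gene passed in this limma fit, although 4 of the 10 kept an unadjusted p under 0.05. Without the stage term Igfbp3, Igfbp4 and Igfbp5 no longer passed, and on a common total Igfbp5 did not (adjusted p = 0.125).

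Between E14 and E17 the 2 genes that rose were Igfbp6 and Igfbp7, and Irs1 fell. They were 3 of the 10 genes, and 15.9% of all 12318 records passed the same limma fit, 9.51% higher and 6.34% lower. Igfbp7, whose product is found around blood vessels and in other matrix, stood at 14.2 FPKM in E14 TRAP and 49.2 FPKM in E17 TRAP, and at 8.12 and 48.5 FPKM in whole lung. The rise was 3.45-fold in TRAP and 5.98-fold in whole lung (log2 difference 2.08, SE 0.19, limma adjusted p = 0.00605). Of the endothelial markers 9 of 13 rose with stage, and their sum went from 75.3 to 121 FPKM in TRAP and from 378 to 680 FPKM in whole lung. Of the epithelial markers 5 of 16 rose, and their sum went from 3091 to 3519 FPKM in TRAP and from 662 to 1244 FPKM in whole lung. The part of either cell type in the rise of Igfbp7 was not tested.

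Igfbp6 stood at 1.36 FPKM in E14 TRAP, a value that rests on 19 inferred fragments (deposited bounds 0.735 to 1.99), and at 10.4 FPKM in E17 TRAP. In whole lung it stood at 2.83 FPKM at E14 and 9.36 FPKM at E17. The values were 7.65-fold higher at E17 in TRAP and 3.30-fold higher in whole lung, and the bounds of the stages did not overlap in either fraction. The log2 difference over both fractions was 1.85 (SE 0.23, limma adjusted p = 0.0130).

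Irs1 fell from 18.3 to 10.8 FPKM in TRAP and from 13.0 to 9.06 FPKM in whole lung (log2 difference -0.59, SE 0.13, limma adjusted p = 0.0376). Within 1 fraction, where no test is possible, Igfbp6 and Igfbp7 were the only 2 of the 10 genes at least 2-fold apart on FPKM + 1, both in TRAP, where 4.55% of records were that much higher and 1.82% lower, and in whole lung, where 4.67% were higher and 1.23% lower. The remaining 7 genes did not pass the stage test. Among them Igfbp5 was lower at E17, mainly in whole lung (116 to 60.3 FPKM; log2 difference over both fractions -0.55, SE 0.18, limma adjusted p = 0.0993). With no filter on low values no gene passed in this limma fit, with 3 of the 10 at an unadjusted p under 0.05.

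**Figure D2:**
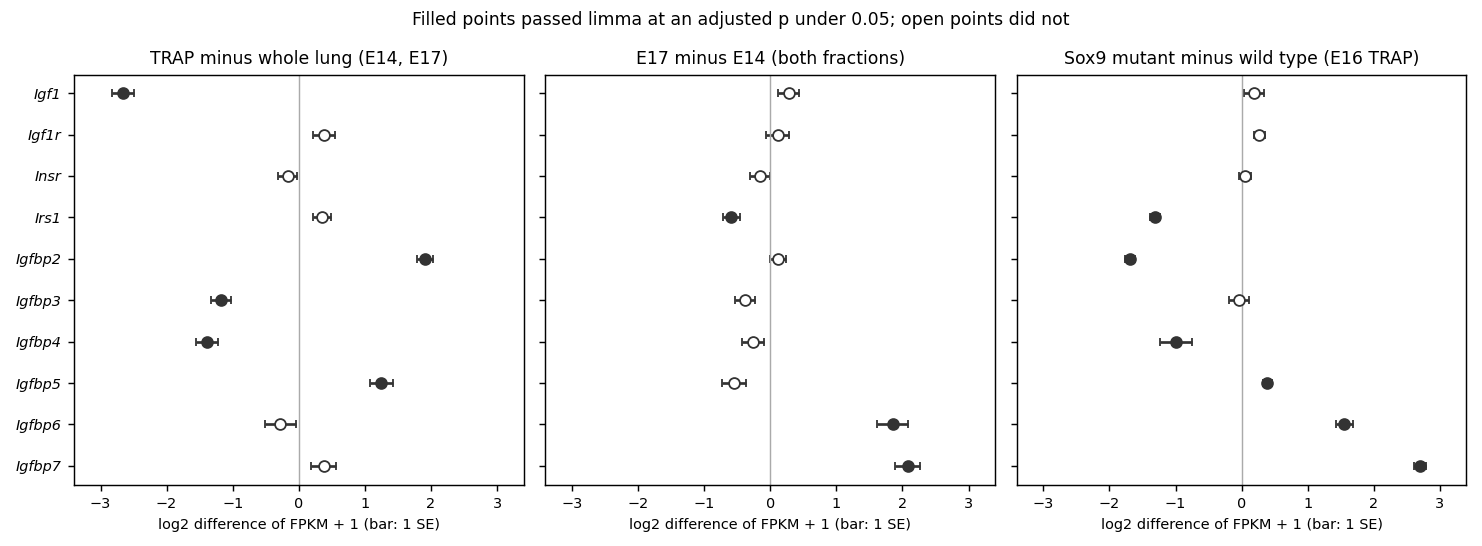
Log2 differences of FPKM + 1 for the 10 genes in the 3 tested comparisons, TRAP minus whole lung, E17 minus E14, and Sox9 mutant minus wild type, with bars of 1 standard error from limma and filled points for an adjusted p under 0.05. Of the 10 genes, 6 passed in 2 of the comparisons, 2 passed in 1 and 2 (Igf1r and Insr) passed in none.

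In the Sox9 mutant at E16, Igfbp2, Irs1 and Igfbp4 fell and Igfbp7, Igfbp6 and Igfbp5 rose. These were 6 of the 10 genes, where 31.6% of all 11870 records passed the limma fit of the 4 E16 libraries, 17.4% higher and 14.2% lower. The wild-type and mutant values did not overlap for 7 of the 10 genes, against 70.1% of all records, so this count is near the background. The median log2 difference of the 10 was 0.12, beside 0.01 for all records.

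The widest rise was that of Igfbp7, from 33.8 and 37.1 FPKM in the wild-type libraries to 256 and 217 FPKM in the mutant ones. The group means were 35.4 ± 2.34 FPKM (SD, n = 2) and 236 ± 27.9 FPKM (SD, n = 2), a 6.68-fold difference, with a log2 difference of 2.70 (SE 0.09, limma adjusted p = 5.2e-05). Both mutant values lay above every other library, E17 whole lung included. Igfbp6 stood at 1.80 and 2.14 FPKM in the wild type and at 8.68 and 6.73 FPKM in the mutant, a 3.91-fold difference of the means (log2 difference 1.55, SE 0.13, limma adjusted p = 0.000758). Igfbp5 rose less, from 117 and 106 FPKM to 140 and 152 FPKM, 1.31-fold (log2 difference 0.39, SE 0.07, limma adjusted p = 0.0102).

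Igfbp2 stood at 576 and 627 FPKM in the wild type and at 175 and 196 FPKM in the mutant. The group means, 602 ± 36.1 FPKM (SD, n = 2) and 186 ± 15.1 FPKM (SD, n = 2), were 3.24-fold apart (log2 difference -1.69, SE 0.07, limma adjusted p = 0.000101). The mutant values lay near those of whole lung, 148 and 180 FPKM, and far from all 4 wild-type TRAP libraries. Its neighbour Igfbp5 moved in the opposite direction. Igfbp4 stood at 61.5 and 74.5 FPKM in the wild type and at 25.7 and 43.8 FPKM in the mutant, where the replicates were the farthest apart of the 6 genes (log2 difference -0.99, SE 0.24, limma adjusted p = 0.0274).

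Irs1, the adaptor, stood at 10.8 and 10.3 FPKM in the wild type and at 3.60 and 3.73 FPKM in the mutant. That 2.88-fold fall (log2 difference -1.31, SE 0.07, limma adjusted p = 0.000177) left the mutant below every other library, the lowest of which was E17 whole lung at 9.06 FPKM. Igf1r, the receptor upstream of it, stood at 8.34 and 7.43 FPKM in the wild type and at 10.1 and 9.40 FPKM in the mutant. The groups did not overlap, but the log2 difference of 0.27 (SE 0.08) just missed the threshold (limma adjusted p = 0.0502), and it passed under 4 of the alternatives without a replicate block.

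Insr, Igf1 and Igfbp3 overlapped between the groups. Insr stood at 2.86 and 2.79 FPKM in the wild type and at 3.12 and 2.82 FPKM in the mutant (log2 difference 0.05, SE 0.09, limma adjusted p = 0.698). Igf1 had means of 1.96 ± 0.555 and 2.35 ± 0.155 FPKM (SD, n = 2 each; log2 difference 0.19, SE 0.15, limma adjusted p = 0.371), and Igfbp3 of 3.20 ± 0.539 and 3.10 ± 0.680 FPKM (log2 difference -0.04, SE 0.15, limma adjusted p = 0.874). The sign for these 3 genes changed when single libraries were left out, and for Igfbp3 also on a common total.

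The rise of Igfbp7 passed under every alternative of the mutant comparison that was run, but limma-voom gave it a smaller size. The deposited bounds of Igfbp7 did not follow counting error alone, so limma-voom cannot decide on that size. In limma-voom its log2 difference was 1.45 in place of 2.70, from 551 and 635 inferred fragments in the wild type and 1747 and 1583 in the mutant, and that of Igfbp6 was then wider at 1.98. Igfbp2 and Irs1 lost their call only on a common total (adjusted p = 0.858 for both), a setting that Mir762 in wild-type replicate 1 dominates. Igfbp4 lost it without wild-type replicate 1 (adjusted p = 0.0652), without wild-type replicate 2 (0.138), with no filter (0.276) and on a common total (0.858), and Igfbp5 lost it without wild-type replicate 2 (0.065), with no filter (0.142) and on a common total (0.858). Igfbp6 lost it with no filter (0.0619). Most epithelial markers rose with Igfbp5, Igfbp6 and Igfbp7: 14 of 16 passed as higher in the mutant. Nkx2-1 went the other way and passed as lower (mutant 306 and 287 FPKM, wild-type 357 and 366 FPKM), and Epcam did not pass. The sum of all 16 went from 2845 and 2812 FPKM to 3796 and 3664 FPKM, 1.32-fold. By limma-voom 9 of the 16 passed as higher and 1 as lower. The deposited bounds of some of these markers, Spint2, Cldn3, Cldn7 and Nkx2-1 included, did not follow counting error alone. Limma-voom cannot size the changes of those, so its count is no check on the 14. The endothelial sum was lower in the mutant, at 63.5 and 49.2 FPKM against 75.1 and 93.3 FPKM, as was the mesenchymal sum, at 183 and 247 FPKM against 287 and 359 FPKM. Of their members, 2 of the 9 tested endothelial markers fell, and 2 of the 15 tested mesenchymal markers fell and 1 rose. Egfl7 was 1 of the endothelial markers that fell. It made up a large part of the endothelial sum, at 43.7 and 46.3 FPKM in wild-type and 30.9 and 26.8 FPKM in mutant libraries. Vim (168 and 199 FPKM in wild-type, 105 and 98.9 FPKM in mutant libraries) was 1 of the mesenchymal markers that fell. Without Vim the mesenchymal sums overlapped, at 77.8 and 148 FPKM against 119 and 160 FPKM. Of the mesothelial markers 1 of 3 tested passed, Msln, which went from 0.851 and 0.694 FPKM up to 13.1 and 11.2 FPKM, and without Msln the sum was 5.64 and 7.53 FPKM against 7.82 and 10.6 FPKM. The part of these shifts in the changes of the 6 genes was not tested.

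As shares of the summed FPKM of Igfbp2 to Igfbp7, the binding protein makeup of the labelled cells differed between genotypes at the cost of Igfbp2. Igfbp2 held 73.2 ± 0.766% (SD, n = 2) of the sum in the wild type and 30.2 ± 2.06% in the mutant, while Igfbp7 held 4.31 ± 0.0707% and 38.6 ± 5.06%. Igfbp5 held 13.6 ± 1.61% and 23.8 ± 1.13%. The sum itself was lower in the mutant, 821 ± 40.8 FPKM against 614 ± 8.12 FPKM. In whole lung Igfbp4 held the largest share, 46.7% at E14 and 45.7% at E17, against 12.0% and 8.40% in TRAP, where Igfbp2 held 64.2% and 64.7%. The share of Igfbp7 rests on its FPKM. Its difference was smaller on inferred fragments, which came from bounds that did not follow counting error alone. Shares are free of the scaling of a library, and the groups of E16 overlapped for neither Igfbp2 nor Igfbp7.

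**Figure D3:**
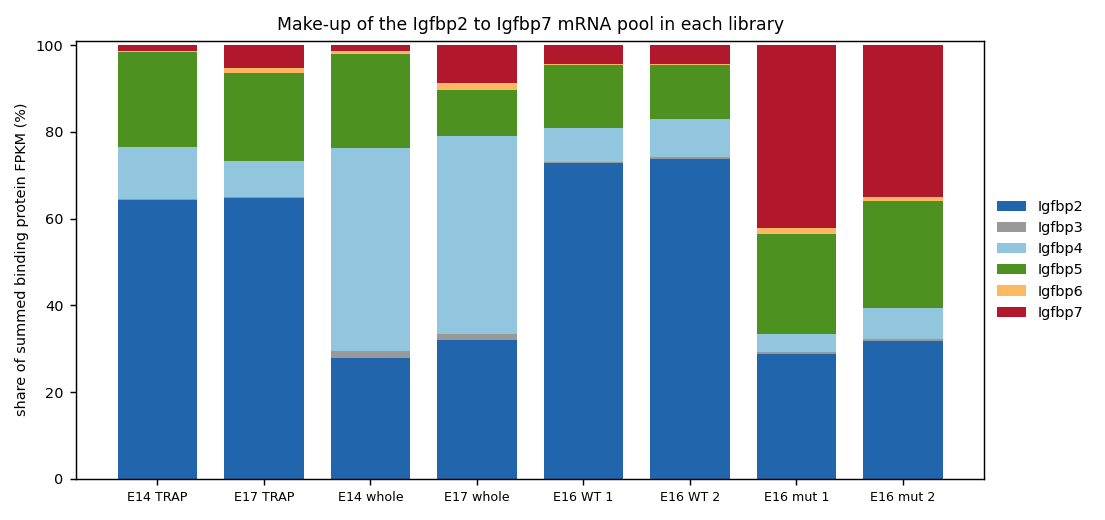
Share (percent) of each of Igfbp2 to Igfbp7 in their summed FPKM, 1 stacked bar per library. Igfbp2 holds 72.7% and 73.7% in the wild-type and 28.8% and 31.7% in the mutant libraries of E16, and Igfbp7 holds 42.1% and 35.0% in the mutant and at most 8.65% elsewhere.

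The wild-type libraries of E16 did not lie between E14 and E17 TRAP for most of the genes, as for most records. Both wild-type values lay below both flanking TRAP libraries for Igf1r, Igfbp4, Igfbp5, Insr and Irs1, as they did for 29.6% of 11842 records, and no member lay above both, as 24.3% of records did. Irs1 was at 10.8 FPKM in E17 TRAP and 10.8 and 10.3 FPKM at E16, nearly equal. Only Igfbp6 and Igfbp7 lay within the range, as 26.7% of records did, so this count is near the background. Day, titles that also carry E13 and library cannot be told apart in this comparison.

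Among the ligand genes it was Igf2, outside the 10, whose FPKM was higher in the mutant. Igf2, which encodes the main IGF before birth, stood at 321 and 291 FPKM in the wild type and at 1087 and 1010 FPKM in the mutant. That is a 3.43-fold difference on the FPKM scale (log2 difference 1.77, SE 0.07, limma adjusted p = 7.1e-05), and whole lung stood at 682 FPKM in E14 and 528 FPKM in E17. The call was lost in limma-voom on inferred fragments (log2 difference -0.14, adjusted p = 0.206), where Igf2 had 4744 and 4801 fragments in the wild type and 4483 and 4444 in the mutant, and on a common total (adjusted p = 0.083). The deposited bounds of Igf2 did not follow counting error alone. Its inferred fragments stayed between 4065 and 4801 in all 8 libraries, while its FPKM ran from 291 to 1087. Limma-voom on these fragments therefore cannot decide on the rise, which is given for the authors' FPKM only. The antisense record Igf2os overlaps it (at most 25.7 FPKM), and the sources used here do not say whether counting used strand. Ins1 and Ins2 were listed at 0 in every library. Igf2r, which encodes the receptor that clears IGF2, did not pass in the mutant (log2 difference 0.12, limma adjusted p = 0.192) and was lower in TRAP than in whole lung (18.1 against 40.7 FPKM at E14 and 12.4 against 40.3 FPKM at E17, log2 difference -1.37, limma adjusted p = 0.00232, and 0.0504 without the stage term).

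Over the lists of the pathway, 58 of 75 genes outside the 10 were tested in the mutant fit, and 26 were higher and 8 lower, where 17.4% and 14.2% of all records were. On a common total 1 of the 58 passed, and with no filter 7 of 75 were higher and 4 lower. Leaving out 1 library at a time gave between 16 and 23 higher and between 2 and 6 lower, the fewest without wild-type replicate 2. Of the 14 receptors and adaptors tested, the 10 included, 4 rose and 2 fell. Beside Irs1, the other that fell was Grb10, an imprinted inhibitor of the receptors, from 266 and 260 FPKM to 147 and 151 FPKM (log2 difference -0.81, limma adjusted p = 0.000179). Grb10 missed the threshold in limma-voom (log2 difference -0.23, adjusted p = 0.054). The deposited bounds of Grb10 did not follow counting error alone, so limma-voom cannot size its change. Grb14, a relative of Grb10, rose from 27.8 and 27.7 FPKM to 51.2 and 49.6 FPKM (log2 difference 0.84, limma adjusted p = 0.000219). The adaptors Shc1 (0.29) and Gab1 (0.25) had smaller log2 rises, and neither passed without wild-type replicate 1 (adjusted p = 0.058 and 0.0841) or without wild-type replicate 2 (0.057 and 0.184).

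Of the 22 tested genes of the PI3K, AKT and mTOR list, 7 rose and 4 fell. Pik3r3 and Pik3r1, which encode regulatory subunits of PI3K, rose by 0.81 and 0.78 on the log2 scale (limma adjusted p = 0.000516 and 0.00133), the catalytic subunit gene Pik3cb by 0.66 (0.00337) and Akt1 by 0.36 (0.00273). Akt1 did not pass in limma-voom (log2 difference 0.01, adjusted p = 0.925). The deposited bounds of Akt1 did not follow counting error alone either, so limma-voom cannot size its change. Of 12 genes known to be induced by FOXO factors, which AKT inhibits, 8 rose. When libraries were centred on their median 5 rose and 1 fell, without wild-type replicate 1 3 rose and 1 fell, without wild-type replicate 2 4 rose, and with no filter 1 rose. Bcl6 had the widest rise of the 4 named (log2 difference 1.14, limma adjusted p = 0.000744), followed by Txnip (0.68), Trib1 (0.54) and Cdkn1b (0.33), the last of which did not pass without wild-type replicate 1 (adjusted p = 0.0937) or 2 (0.0761). The median log2 difference of that list was 0.30, beside 0.01 for all records.

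Among other proteins with an IGFBP domain, 4 of the 5 tested genes rose, namely Crim1 (log2 difference 1.38), Nov (1.12), Ctgf (0.66) and Cyr61 (0.61). Crim1 went from 0.961 and 1.03 FPKM to 3.61 and 4.86 FPKM. Of 6 tested genes that cleave the binding proteins or inhibit the cleavage, Adamts1 (log2 difference -0.48), Adam12 (-0.40) and Stc1 (-0.53) fell and Adam9 rose (0.30). Without wild-type replicate 2 Adamts1 (adjusted p = 0.0752), Adam12 (0.0853) and Adam9 (0.111) did not pass, and Stc1 was no longer tested. Without wild-type replicate 1 Adamts1 (0.0547) and Adam12 (0.117) did not pass either, nor did Adam9 in limma-voom (0.0664), and with no filter these 4 and the 4 IGFBP-domain genes had limma adjusted p values between 0.0561 and 0.144. Of the 3 genes whose products bind Igf2 mRNA, Igf2bp3 (log2 difference 0.52) and Igf2bp1 (0.41) rose. Igf2bp2 stood at 52.4 and 47.0 FPKM in the wild type and at 48.5 and 48.0 FPKM in the mutant (limma adjusted p = 0.68).

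**Figure D4:**
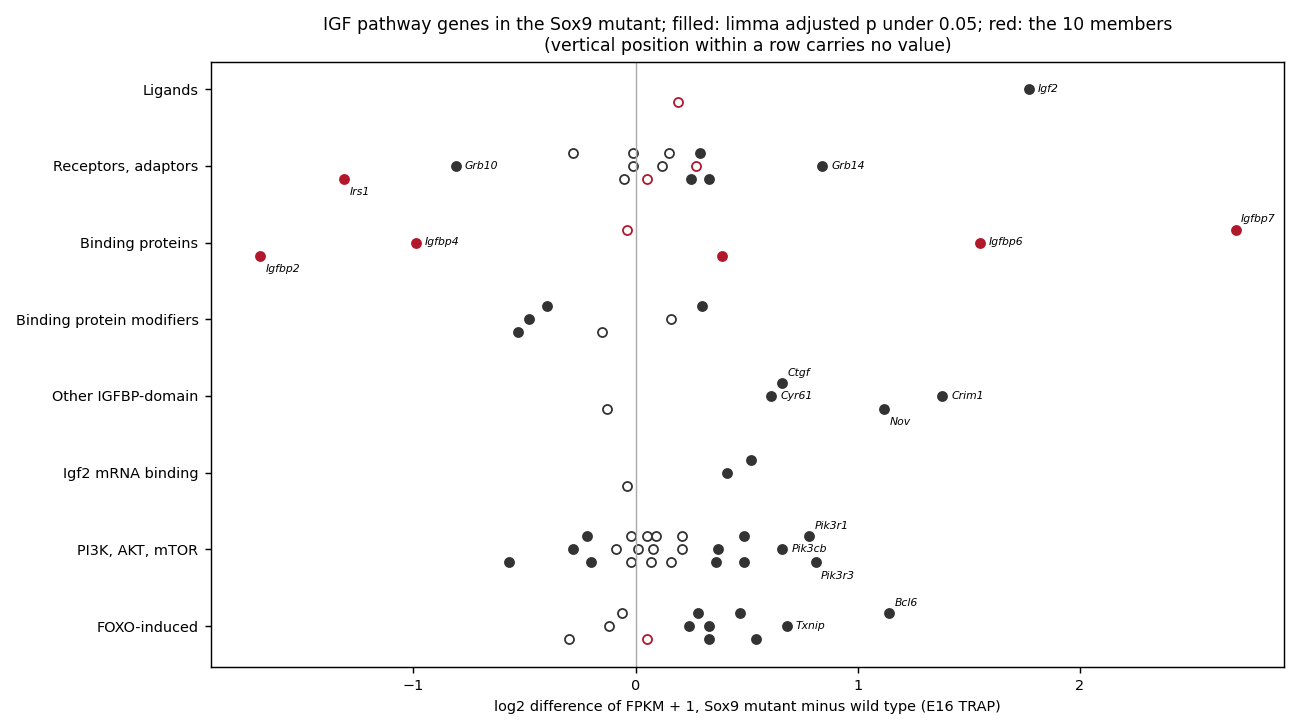
Log2 differences of FPKM + 1, Sox9 mutant minus wild type at E16, for the genes of 8 IGF pathway lists, 1 point per gene and 1 row per list, filled where the limma adjusted p is under 0.05 and red for the 10 genes. Igf2 (1.77) and Igfbp7 (2.70) lie farthest to the right of their rows, Irs1 (-1.31) and Igfbp2 (-1.69) farthest to the left, and the PI3K, AKT and mTOR row spreads to both sides.

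Between E14 and E17 all 3 genes of the Igf2 mRNA-binding list fell, Igf2bp1 by 1.19, Igf2bp2 by 1.10 and Igf2bp3 by 0.62 on the log2 scale (limma adjusted p = 0.00809, 0.00728 and 0.0285). Igf2bp1 went from 16.6 to 6.83 FPKM in TRAP and from 16.4 to 6.44 FPKM in whole lung, whereas Igf2 itself did not pass (log2 difference -0.11, limma adjusted p = 0.629). Grb10 fell with Irs1 (log2 difference -0.47, limma adjusted p = 0.0427), a call lost with a pseudocount of 0.1 FPKM (adjusted p = 0.0534), with a filter of 5 FPKM (0.0509), with no filter (0.355), on a common total (0.341) and in limma-voom (log2 difference 0.07, adjusted p = 0.885). The limit of limma-voom for Grb10 given above holds here too. Htra1 (1.57) and Htra3 (1.60), which encode secreted proteases, rose, to 19.7 and 18.9 FPKM in E17 whole lung. Of the 22 PI3K, AKT and mTOR genes none passed in limma's stage fit, with 2 at an unadjusted p under 0.05 and 0 in limma-voom. In all, 6 of the 59 tested genes outside the 10 rose and 5 fell, where 9.51% and 6.34% of all records did.

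In TRAP against whole lung, 12 of those 59 genes were higher and 14 lower, where 23.6% and 17.1% of all records were. Grb14 was higher in TRAP at both stages, 25.5 against 8.44 FPKM and 30.7 against 13.2 FPKM (log2 difference 1.32, limma adjusted p = 0.00191). Adam12 was lower, 3.32 against 22.6 FPKM and in the same direction at E17 (log2 difference -1.96, limma adjusted p = 0.0035), as were the IGFBP-domain genes Wisp1 (-2.00), Htra3 (-1.94) and Crim1 (-1.27). Pik3r1 (-0.80) was lower, and Pik3r2 (0.58) and Foxo3 (0.60) were higher. Of the genes named here, only Adam12 and Wisp1 still passed without the stage term, and Pik3r2 and Foxo3 also lost their call on a common total. Mesenchymal and endothelial markers were lower in TRAP in the same libraries, by the sums given for each, and their part in these differences was not tested.

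For each of the 10 genes, the 3 records whose log2(FPKM + 1) profile over the 8 libraries, each set to its own mean, lay nearest were taken by root mean square distance among 11555 records. The libraries share depth and scaling, so these are descriptions. Igfbp2 was followed most closely by Cpn1 (distance 0.13), Sema4f (0.14) and Cfi (0.23), where Igfbp2 itself varied by 0.91 around its mean. Sema4f stood at 34.8 FPKM in E14 TRAP, 7.37 FPKM in E14 whole lung, 26.1 and 28.4 FPKM in the wild type and at 8.58 and 9.27 FPKM in the mutant. Igfbp7, which varied by 1.56, had looser neighbours in Atp2a3 (0.31), S100a6 (0.35) and Pde8b (0.38). S100a6 stood at 49.3 and 48.1 FPKM in the wild type and at 194 and 198 FPKM in the mutant. Igfbp6 lay nearest to Gpr116 (0.22), Pglyrp1 (0.29) and Id1 (0.33), all 3 of which were higher in the mutant and at E17.

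Irs1 lay nearest to Add3 (0.13), Npc1 (0.15) and Slc1a4 (0.17). Npc1 stood at 6.79 and 6.76 FPKM in the wild type and at 1.86 and 1.92 FPKM in the mutant. Igf1 lay nearest to Sh3bp5 (0.12), Gyg (0.13) and Ptges (0.14), and Gyg stood at 28.5 FPKM in E14 TRAP against 179 FPKM in E14 whole lung. Igfbp4 lay nearest to Abcg2 (0.26), Tcf7 (0.27) and Pcolce (0.28), Igfbp5 to Bex2 (0.16), Patz1 (0.24) and Fbxl19 (0.24), and Igfbp3 to Neurl1a (0.11), Ptpdc1 (0.13) and Tsku (0.14). Insr varied by only 0.27 and Igf1r by 0.34 around their means, so that their nearest records, Med12 (0.05) and Wnk1 (0.08), mark little more than flat profiles.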

How the data were processed

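RNA was measured in 8 mouse embryonic lung libraries. Per the submitters' processing notes, TopHat2 2.0.14, Bowtie2 2.2.3, Cufflinks 2.2.1, Cuffnorm and the build mm10 were used. The authors deposited 1 table of FPKM values with confidence bounds per library, and the values were taken without further scaling. The sources used here do not give the way Cuffnorm scaled the libraries. Fragments behind a value were inferred by dividing it by its standard error and squaring, where 2 standard errors were read from the value to its upper bound. They stand for counts only where the deposited bounds follow counting error alone. For Igf1, Igfbp7, Igf2, Grb10 and Akt1, among others, the bounds did not in all libraries. Limma-voom cannot size the changes of such genes. The 2 records that a file marked as failed in any library were left out.

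Tests used log2(FPKM + 1), which understates the change of low genes, in limma 3.58.1 (R 4.3.3). Records needed a mean of 1 FPKM or more in the fitted libraries. The fits gave two-sided p-values adjusted by Benjamini-Hochberg over all records at 0.05. Residual degrees of freedom were 2 for the mutant fit (3.73 prior) and 1 for the fit of E14 and E17 (4.46 prior), which had stage and fraction as additive terms. Comparisons of single libraries were described at 2-fold of FPKM + 1. All 10 genes passed the filter in each fit. The fits were tested on simulated data.

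The 10 genes, pathway lists and markers were chosen with earlier results of these data known, and the promoter motifs after the files had been seen. Other genes named are Igf2, Igf2r and Igfbp1, up to 4 per list with the smallest p, the 3 nearest profiles of each of the 10 genes, and Sox9. Alternatives were another pseudocount (0.1 FPKM), filters of 0 and 5 FPKM, 3 other scalings, limma-voom on inferred fragments, each E16 library left out, a replicate block and no stage term. RefSeq promoters matched 9 of the 10 genes.

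Replicates differed by more than counting error (mean squared difference 4.65 in the wild type and 6.12 in the mutant, where 1 is counting error alone), so all were kept as separate samples.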

Additional observations from a re-analysis of the deposited data

Results flagged for a closer look

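For 3 genes the E17 minus E14 value had opposite signs in TRAP and in whole lung. Each value compares 1 library with 1, and the difference between the fractions was not tested. On log2(FPKM + 1), Igf1r was higher by 0.42 in TRAP and had a value of -0.19 in whole lung. Igfbp4 had a value of -0.57 in TRAP and 0.05 in whole lung. Igfbp2 had -0.05 and 0.28.

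Igfbp6 had a TRAP minus whole lung value of -0.70 at E14 and 0.14 at E17, also from single libraries and with the difference not tested. Its E14 TRAP level rests on 19 inferred fragments.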

How the results depend on the processing

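In the mutant comparison 3754 records passed. With no filter on low values 1187 did, with 1 of the 10 genes higher (Igfbp7). On a common total 224 did (723 at an unadjusted p under 0.05), with 0 of the 10 lower in limma (0 at an unadjusted p under 0.05). Limma-voom, which was run without that rescaling, had 3 lower. Leaving out 1 library at a time gave between 1888 and 3433. For TRAP against whole lung, no filter left 0 records passing limma (5744 at an unadjusted p under 0.05) and so 0 of the 10 higher and 0 lower. Limma-voom, which was run only with the filter of 1 FPKM, called 4157. A common total left 1 of the 10 higher and 4 lower, as Igfbp6 then passed (adjusted p = 0.0498), and without the stage term 571 records passed, with 1 of the 10 higher and 1 lower. For stage, no filter likewise left 0 records, with 0 of the 10 higher and 0 lower (3617 records at an unadjusted p under 0.05). Limma-voom with the filter of 1 FPKM called 1613. A common total left 1121 records, and leaving out records under 200 bases before rescaling made 2 of the 10 lower, as Igfbp5 then passed. Within single fractions, a pseudocount of 0.1 FPKM raised the records at least 2-fold apart between stages to 1294 in TRAP and 1133 in whole lung. The cause of these shifts was not tested. With no filter more records were tested (24485), and the common total includes the large Mir762 share.

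Values that changed sign belonged to genes that had not passed. In the mutant, Igfbp3 did so on a common total (0.28), with records under 200 bases left out (0.02), without wild-type replicate 2 (0.09) and without mutant replicate 1 (0.13). With 1 library left out in turn, Igfbp3 ran from -0.21 to 0.13, Igf1 from -0.002 (without wild-type replicate 1) to 0.38 and Insr from -0.003 (without mutant replicate 1) to 0.11. The others were Irs1 in TRAP against whole lung (-0.01), and Igf1r (-0.15) and Igfbp2 (-0.16) by stage, all on a common total, and Igf1 by stage in limma-voom (-0.03). The common total shifted the median log2 difference of all records to 0.41 in the mutant, -0.29 in TRAP against whole lung and -0.23 by stage, and changes there are relative to those medians. The share of calls that were higher was 55% in the mutant fit, 42.9% after centring, 68.2% with short records left out and 74.6% on a common total. It was 58% for TRAP against whole lung, 16.1% on a common total, 43.5% in limma-voom and 27.5% without the stage term, and 60% by stage, 45.9% on a common total and 45.1% with short records left out.

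With the replicate number as a block, 3502 records passed in the mutant, with 4 of the 10 genes higher and 3 lower, since Igf1r then passed (adjusted p = 0.044). In the labels, same-numbered samples share only a number. Their deviations had a correlation of 0.00722 across genes, from 2 pairs, a value over all genes that cannot speak for a smaller set. With the block, 5 of 15 tested mesenchymal markers passed as lower and 1 as higher, against 2 and 1 without it. Of 7 tested smooth muscle and pericyte markers 4 passed as lower, against 0 without the block. Low depth limits Igfbp6 most, at 19 fragments in E14 TRAP.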

Other observations

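Set against the binding proteins on the FPKM scale, Igf2 mRNA stood at 0.405 and 0.342 of the summed Igfbp2 to Igfbp7 level in the wild-type libraries of E16 and at 1.79 and 1.63 in the mutant ones. In E14 and E17 TRAP the ratio was 0.438 and 0.506, and in whole lung it was 1.28 and 0.942. The ratio does not depend on the scaling of a library. The mutant ratios lay above every other library. They rest on the higher FPKM of Igf2 in the mutant, a call that limma-voom on inferred fragments did not make (log2 difference -0.14, adjusted p = 0.206). Those fragments hardly moved between libraries, as given above, so limma-voom cannot decide on that call. The ratio compares mRNA levels per length and says nothing of protein.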
